A study of Mus musculus with 8 samples.

Results

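The expression of 40 cell cycle and DNA replication genes was examined in macrophages sorted from the epididymal white adipose tissue (eWAT) of mice, as a transcript measure of local macrophage proliferation. The members were a list of genes with known roles, and each was found by its symbol in the tables of the study, among 17740 genes listed for mice on a high-fat diet (HFD) and 16436 listed for mice on a normal diet (ND), 16136 of them in both. All 40 were present in both tables and all 40 passed the filter on low counts in both. Adhesion-related macrophages (ARMs) came from the floating adipocyte layer after collagenase digestion, where they stay attached to fat cells, and stromal macrophages (SMs, labelled NARM by the submitters) came from the pellet of the stromal vascular fraction. The mice were male C57BL/6J wild types, placed at 6 weeks of age on the HFD, with 60% fat, for 8 weeks, or on the ND, which the labels call a chow diet. The 4 groups were ARMs and SMs of each diet, with 2 libraries in each, and each library pooled the cells of 6 HFD mice or 10 ND mice. The p-values therefore measure the spread between pools and not between single mice. A library is bulk RNA of a sorted population, so fewer dividing cells and less transcript per dividing cell cannot be told apart.

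The genes act in sequence through the cell division cycle. E2F transcription factors and cyclin E start S phase, the MCM helicase is loaded on replication origins by Cdc6 and Cdt1 and then unwinds DNA, and Pcna clamps the polymerases on the template. In G2 and mitosis, Cdk1 with its B cyclins, the Polo and Aurora kinases, spindle motors and kinetochore proteins act to separate the chromosomes. The anaphase-promoting complex with Ube2c and Cdc20 marks cyclins for destruction. Tissue macrophages, unlike most terminally differentiated cells, can divide in place, and proteins such as Ki-67 (Mki67) are used as markers of cells in cycle.

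Transcription of the mitotic members is known to rest on promoters with a cell cycle homology region (CHR, letters TTTGAA) and CCAAT boxes bound by NF-Y, and that of the replication members on E2F sites. Promoters of RefSeq (build GRCm38.p6, 250 bases before to 50 after a transcription start) were matched for 32 of the 40 members, with 33 promoters. Tpx2, Aurkb, Ccna2, Mcm4, Kif20a, Foxm1, Stmn1 and Ccne2 had no match. On either strand, TTTGAA was found in 13 of 18 promoters of members that act in G2 and mitosis, in 1 of 15 of members that act in G1 and S phase, and in 17.9% of all 32851 promoters. CCAAT was found in 16 of the 18, in 9 of the 15 and in 37.4% of all promoters. An E2F octamer (TTTCCCGC, TTTGGCGC, TTTCGCGC or TTTGCCGC) was found in 1 of the 18, in 6 of the 15 and in 2.26% of all promoters. A match of letters is a description and not a bound site. The 4 promoters printed here belong to the member that passed the test in ND mice (Mki67) and to 3 that passed it in HFD mice, a ubiquitin-conjugating enzyme of anaphase, a spindle motor and a helicase subunit. Matches to the motifs are in capitals on the strand of the gene, and a match on the opposite strand reads TTCAAA or ATTGG. The Mcm5 promoter lies at chr8:75109259-75109558 (plus strand), Ube2c at chr2:164769679-164769978 (plus strand), Kif11 at chr19:37376132-37376431 (plus strand) and Mki67 at chr7:135716330-135716629 (minus strand).
Mcm5: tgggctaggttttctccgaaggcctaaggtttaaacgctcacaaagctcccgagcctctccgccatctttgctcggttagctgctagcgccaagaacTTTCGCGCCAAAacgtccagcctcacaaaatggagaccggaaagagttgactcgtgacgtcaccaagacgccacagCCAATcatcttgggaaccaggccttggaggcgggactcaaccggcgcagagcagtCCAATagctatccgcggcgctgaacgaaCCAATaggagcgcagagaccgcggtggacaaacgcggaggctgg
Ube2c: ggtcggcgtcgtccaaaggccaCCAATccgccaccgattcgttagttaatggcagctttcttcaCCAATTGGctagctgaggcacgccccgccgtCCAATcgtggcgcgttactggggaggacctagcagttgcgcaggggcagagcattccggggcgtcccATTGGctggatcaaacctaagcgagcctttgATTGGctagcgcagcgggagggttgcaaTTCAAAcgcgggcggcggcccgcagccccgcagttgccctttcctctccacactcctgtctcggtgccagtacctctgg
Kif11: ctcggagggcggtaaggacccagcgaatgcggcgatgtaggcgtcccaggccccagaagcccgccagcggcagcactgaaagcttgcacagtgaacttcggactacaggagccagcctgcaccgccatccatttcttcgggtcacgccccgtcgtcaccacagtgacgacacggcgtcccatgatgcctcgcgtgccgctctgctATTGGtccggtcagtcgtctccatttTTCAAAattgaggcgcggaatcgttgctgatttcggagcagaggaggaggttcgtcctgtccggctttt
Mki67: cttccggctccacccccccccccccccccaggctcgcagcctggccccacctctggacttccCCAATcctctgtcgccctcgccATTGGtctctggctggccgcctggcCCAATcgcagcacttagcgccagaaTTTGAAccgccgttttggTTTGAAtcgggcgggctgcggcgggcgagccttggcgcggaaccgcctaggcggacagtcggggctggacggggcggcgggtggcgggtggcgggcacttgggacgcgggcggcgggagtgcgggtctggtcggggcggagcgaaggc
The Mcm5 promoter held 3 CCAAT boxes, 2 overlapping E2F octamers on opposite strands and no CHR. The other 3 held CHR and CCAAT boxes and no E2F octamer, with 1 CHR and 6 CCAAT boxes in Ube2c, 1 of each in Kif11, and 2 and 3 in Mki67. The matched promoters of Mcm3, Mcm7 and Birc5, which also passed in HFD mice, are not printed. That of Birc5, a mitotic member, held 0 CHR, 0 CCAAT boxes and 0 E2F octamers.

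The estimated counts summed to between 14508824 and 19040133 per library. Levels are given as FPKM (fragments per kilobase of transcript, scaled to the mapped fragments of a library), which can be compared between genes because they are per length. Changes are log2 fold changes of ARMs over SMs, from a fit of edgeR to the counts of each diet alone, and p-values of its quasi-likelihood test were adjusted over all genes tested (Benjamini-Hochberg). A gene passed the test at an adjusted p under 0.05, and was called when its fold change was also over 1.5, the threshold of the study. Of 12 chosen macrophage markers, 12 were listed in both diets. All 8 adipocyte markers were listed too, so being listed does not identify the cells. The level of the macrophage markers was summed in TPM (a unit per length in which every library has the same total). It was 35310 and 33504 TPM in the HFD ARM libraries, below the 36611 and 35718 TPM of the HFD SM libraries. In ND mice it was 37940 and 39194 TPM in the ARM libraries, against 38260 and 37960 TPM in the SM libraries.

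In HFD mice the 40 genes lay higher in ARMs than in SMs on balance, with the smallest adjusted p in the spindle and anaphase genes Kif11, Tpx2 and Ube2c. Of the 40 members, 39 had a log2 fold change above 0, against 48.5% of the 13337 genes tested. Their median was 0.33, or 1.26-fold, against -0.0064 over all genes, and they ranged from -0.03 (Pcna) to 0.54 (Bub1). In CPM (counts scaled to the library total with the TMM factors), both ARM libraries lay above both SM libraries for 29 members and below them for 0, where 26.2% and 26.5% of all genes did so. In FPKM the count above was 32, with E2f1, Mcm6 and Aurkb added. No member was called by edgeR, nor by DESeq2 or limma, where 4.46% of all genes were called higher in ARMs and 0.292% lower. At an unadjusted p under 0.05, 22 members were higher, against 13.4% of all genes, and 0 were lower, against 9.75%. Without the fold limit, 8 members passed the test and all rose (Mcm3, Mcm5, Mcm7, Ube2c, Tpx2, Kif11, Kif20a and Birc5), against 6.53% of all genes that rose and 3.02% that fell. The 8 depended on the libraries. The members that passed numbered 1 without the first ARM library (Ccnb2, which was not among the 8 and was then called), 0 without the second, 4 without the first SM library and 19 without the second, and in the last case 9 were called. DESeq2 passed 1 of the 8, Mcm5. The median was less sensitive, from 0.21 to 0.45 over the 4 left-out libraries.

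In ND mice the members again lay higher in ARMs than in SMs on balance, and Mki67 was the member that rose. Of the 40, 36 had a log2 fold change above 0, against 46.5% of 12441 genes tested, with a median of 0.24, or 1.18-fold, against -0.016 over all genes and a range from -0.11 (Tyms) to 0.64 (Bub1). In CPM as in FPKM, 18 members had both ARM libraries on top and 1 had them below both SM libraries; in CPM this held for 21.2% and 22.8% of all genes. No member was called by edgeR, DESeq2 or limma, where 3.55% of all genes were called higher and 0.129% lower, while 8 were higher and 0 lower at an unadjusted p under 0.05, against 10.2% and 4.75% of all genes. Mki67 alone passed the test, where 4.28% of all genes rose. Without the first ND ARM library the median fell to 0.05, and without each of the other 3 it lay between 0.22 and 0.35. Mki67 did not pass without the first SM library (adjusted p = 0.187) or without the second ARM library (adjusted p = 0.0641).

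**Figure D1:**
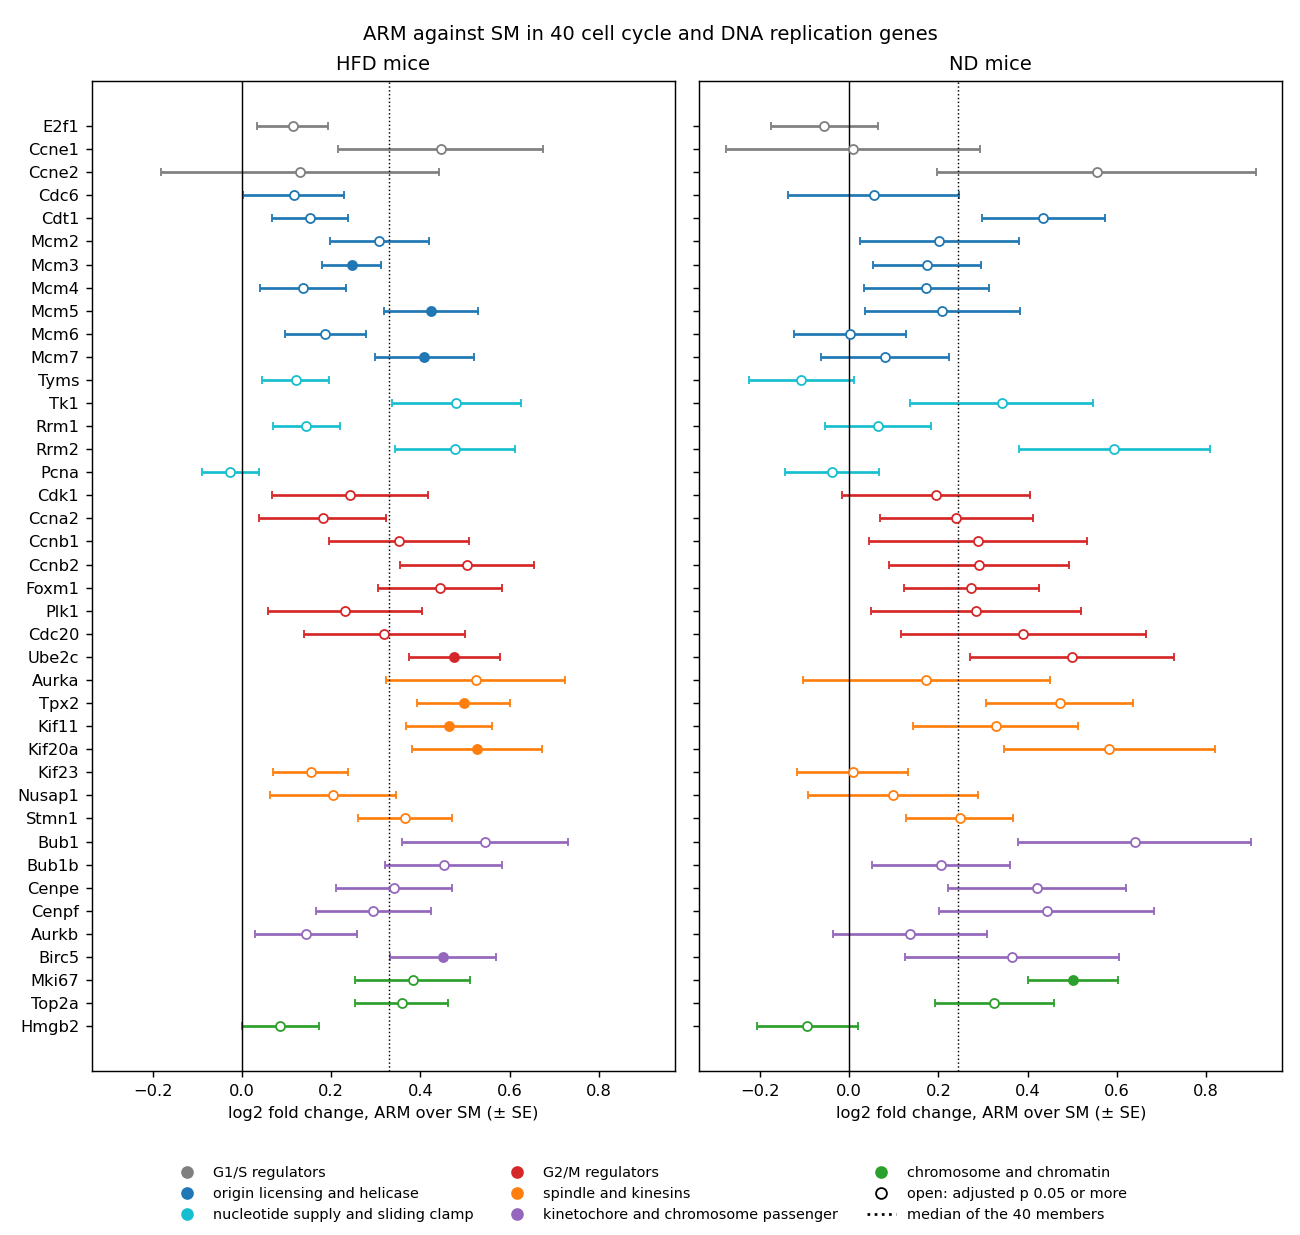
Log2 fold change of ARMs over SMs with its standard error for each of the 40 members, colored by role, in HFD mice (left) and ND mice (right). Filled points passed the test, which were 8 in HFD mice and 1 in ND mice, and the dotted lines mark the medians of 0.33 and 0.24.

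The 3 G1/S regulators did not pass the test in either diet, and their medians were 0.13 (HFD) and 0.0073 (ND). E2f1, which switches on S phase genes, was at 14 and 15.3 FPKM in HFD ARMs and 12.6 and 13.9 FPKM in HFD SMs, and at 12.4 and 10.8 FPKM in ND ARMs and 12.6 and 11.6 FPKM in ND SMs. The HFD ARM libraries lay just above the HFD SM libraries in FPKM, and the ND libraries overlapped, with log2 fold changes of 0.11 ± 0.08 (SE, adjusted p = 0.447) and -0.06 ± 0.12 (adjusted p = 0.898). Ccne2, a cyclin E that activates Cdk2 at the start of S phase, was among the lowest members, at 0.65 and 1.28 FPKM in HFD ARMs, 0.82 and 0.93 FPKM in HFD SMs, 1.19 and 0.68 FPKM in ND ARMs and 0.74 and 0.57 FPKM in ND SMs. Its 2 HFD ARM libraries differed more from each other than from the SM libraries. The log2 fold change of Ccne1, the other cyclin E, was 0.45 ± 0.23 in HFD mice (adjusted p = 0.286) and 0.0073 ± 0.28 in ND mice (adjusted p = 0.996).

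Of the 8 genes of origin licensing and the replicative helicase, 3 passed the test in HFD mice and 0 in ND mice, with medians of 0.22 and 0.17. Mcm5, a helicase subunit, was at 12.2 and 14.5 FPKM in HFD ARMs against 8.78 and 10.8 FPKM in HFD SMs. It rose 1.34-fold (log2 fold change 0.42 ± 0.11, adjusted p = 0.032), with both ARM libraries on top. In ND mice the same gene was at 12.1 and 8.12 FPKM in ARMs and 9.76 and 7.94 FPKM in SMs, so the groups overlapped (0.21 ± 0.17, adjusted p = 0.672). Mcm3 was at 26.3 and 27.3 FPKM in HFD ARMs and 21.5 and 22.9 FPKM in HFD SMs, a rise of 1.19-fold (adjusted p = 0.0451). Mcm7 was at 13.0 and 14.2 FPKM against 8.69 and 11.2 FPKM, a rise of 1.33-fold (adjusted p = 0.0448). These are subunits of the same ring, and Mcm2, Mcm4 and Mcm6 had HFD log2 fold changes of 0.31, 0.14 and 0.19 that did not pass. Cdt1, the loading factor that is destroyed once S phase begins, was at 11.2 and 10.7 FPKM in ND ARMs and 8.93 and 7.32 FPKM in ND SMs, with no overlap (0.43 ± 0.14, adjusted p = 0.0978). In HFD mice its change was 0.15 ± 0.09 (adjusted p = 0.329), and that of Cdc6 was 0.12 in HFD mice and 0.05 in ND mice.

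Pcna had the highest level of the 40 in each of the 8 libraries. It was at 166 and 179 FPKM in HFD ARMs and 176 and 168 FPKM in HFD SMs, and at 248 and 210 FPKM in ND ARMs and 247 and 222 FPKM in ND SMs. The groups overlapped in both diets (-0.03 ± 0.06, adjusted p = 0.862, and -0.04 ± 0.11, adjusted p = 0.923), and the sign in HFD mice changed with the normalization, to 0.0024 with library totals. Rrm2, the S phase subunit of the reductase that makes deoxynucleotides, was at 5.38 and 5.97 FPKM in HFD ARMs against 3.56 and 4.42 FPKM in HFD SMs (0.48 ± 0.13, adjusted p = 0.0513). In ND mice it was at 6.62 and 4.04 FPKM in ARMs against 3.64 and 3.45 FPKM in SMs (0.59 ± 0.22, adjusted p = 0.163). The first ND ARM library stood above the other 3, and ARMs were above SMs in both diets without passing the test. Tk1, the thymidine kinase of S phase, had log2 fold changes of 0.48 (adjusted p = 0.0663) and 0.34 (adjusted p = 0.51). Rrm1, the other reductase subunit, was at 0.14 and 0.06. Tyms, the thymidylate synthase, was at 0.12 (HFD) and -0.11 (ND).

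Of the 8 regulators of G2/M, Ube2c, the conjugating enzyme of the anaphase-promoting complex, rose in HFD mice and none passed in ND mice, with medians of 0.34 and 0.29 and all 8 above 0 in both diets. Ube2c was at 16.8 and 17.4 FPKM in HFD ARMs against 11.7 and 12.4 FPKM in HFD SMs, a rise of 1.39-fold (0.48 ± 0.10, adjusted p = 0.0169). Its ND libraries were at 8.9 and 7.07 FPKM in ARMs and 4.9 and 6.37 FPKM in SMs (0.50 ± 0.23, adjusted p = 0.317). ARMs were above SMs without overlap in both diets, and the standard error was larger in ND mice. Cdk1, the kinase that drives entry into mitosis, was at 2.7 and 4.0 FPKM in HFD ARMs, 2.69 and 2.86 FPKM in HFD SMs, 2.65 and 2.09 FPKM in ND ARMs and 1.99 and 2.17 FPKM in ND SMs. The ARM and SM libraries overlapped in both diets (0.24 ± 0.17, adjusted p = 0.464, and 0.19 ± 0.21, adjusted p = 0.767), and without the second HFD ARM library the HFD value was -0.05. Ccnb1, the cyclin partner of Cdk1, was at 2.72 and 3.04 FPKM against 2.2 and 2.23 FPKM in HFD mice and at 2.18 and 1.85 FPKM against 1.65 and 1.66 FPKM in ND mice. Its ARM libraries lay above its SM libraries in both diets, at 0.35 ± 0.16 (adjusted p = 0.213) and 0.29 ± 0.25 (adjusted p = 0.681). The other 5, Ccna2, Ccnb2, Foxm1 (the transcription factor of G2 genes), Plk1 and Cdc20, had log2 fold changes from 0.18 to 0.50 in HFD mice and from 0.24 to 0.39 in ND mice, and none passed the test.

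**Figure D2:**
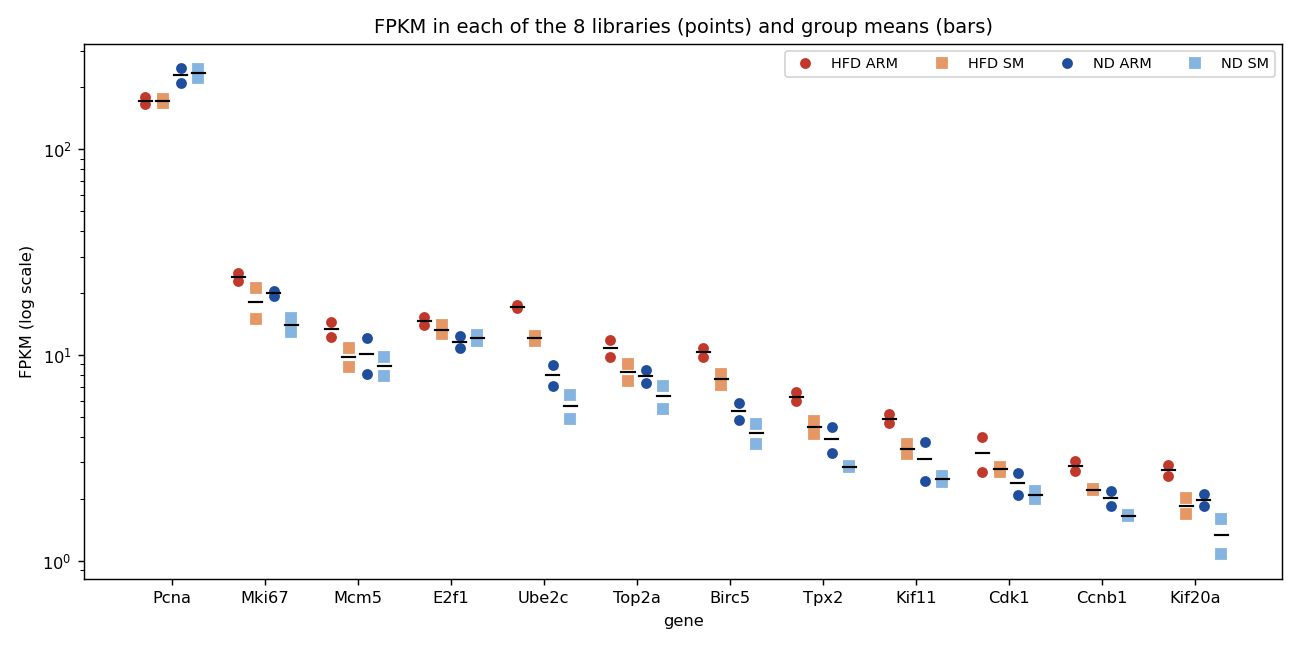
FPKM on a log axis of 12 members in each of the 8 libraries (points), with group means (bars). Pcna lies above 160 FPKM in every library, and Ube2c, Tpx2 and Birc5 show HFD ARMs on top and ND SMs at the bottom.

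The 7 spindle and kinesin genes held the largest median in HFD mice, 0.46, and 3 of them passed. Kif11, the motor that pushes spindle poles apart, was at 4.67 and 5.14 FPKM in HFD ARMs and 3.28 and 3.69 FPKM in HFD SMs. This was a rise of 1.38-fold (0.46 ± 0.10, adjusted p = 0.0138) and the smallest p of the 40. Its ND ARM libraries were at 3.78 and 2.45 FPKM and its ND SM libraries at 2.42 and 2.57 FPKM, with overlap (0.33 ± 0.18, adjusted p = 0.466). Tpx2, which nucleates spindle microtubules and activates Aurora A, was at 5.95 and 6.59 FPKM against 4.12 and 4.77 FPKM in HFD mice, a rise of 1.41-fold (adjusted p = 0.015). In ND mice Tpx2 was at 4.45 and 3.35 FPKM in ARMs and 2.84 and 2.88 FPKM in SMs (0.47 ± 0.17, adjusted p = 0.146). Kif20a, a kinesin of the midzone and cytokinesis, was at 2.59 and 2.91 FPKM against 1.68 and 2.01 FPKM in HFD mice, a rise of 1.44-fold (adjusted p = 0.0484). In ND mice Kif20a was at 2.1 and 1.84 FPKM against 1.6 and 1.07 FPKM (0.58 ± 0.24, adjusted p = 0.234). Tpx2 and Kif20a separated ARMs from SMs in both diets. The other 4 ranged from 0.15 (Kif23, a kinesin of the midbody) to 0.52 (Aurka) in HFD mice and from 0.0075 (Kif23) to 0.25 (Stmn1, a microtubule destabilizer) in ND mice, where the median of the 7 was 0.25.

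The 6 kinetochore and chromosome passenger genes had medians of 0.40 (HFD) and 0.39 (ND). Birc5 (survivin), a passenger protein of the Aurora B complex, was at 9.79 and 10.8 FPKM in HFD ARMs against 7.15 and 8.12 FPKM in HFD SMs, a rise of 1.37-fold (0.45 ± 0.12, adjusted p = 0.0412). Its ND libraries, which did not overlap either, gave 0.36 ± 0.24 (adjusted p = 0.562). Bub1, a kinase of the spindle checkpoint, was at 1.18 and 1.53 FPKM in HFD ARMs and 0.88 and 0.94 FPKM in HFD SMs, and at 1.1 and 0.96 FPKM in ND ARMs and 0.63 and 0.69 FPKM in ND SMs. Bub1 had the largest log2 fold change of the 40 in both diets, 0.54 ± 0.19 (adjusted p = 0.103) and 0.64 ± 0.26 (adjusted p = 0.239), at a low level and without passing. Cenpf, a kinetochore protein, was at 1.09 and 1.22 FPKM against 0.83 and 1.02 FPKM in HFD mice and at 0.54 and 0.6 FPKM against 0.33 and 0.49 FPKM in ND mice. Its groups did not overlap in either diet (0.29 ± 0.13, adjusted p = 0.204, and 0.44 ± 0.24, adjusted p = 0.444). Bub1b and Cenpe, both at the kinetochore, and Aurkb, the kinase of the passenger complex, had log2 fold changes of 0.45, 0.34 and 0.14 in HFD mice and 0.21, 0.42 and 0.14 in ND mice.

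Mki67, whose protein coats mitotic chromosomes, was at 22.9 and 25.0 FPKM in HFD ARMs and 14.9 and 21.1 FPKM in HFD SMs, and at 20.4 and 19.4 FPKM in ND ARMs and 13.0 and 15.1 FPKM in ND SMs. Both ARM libraries lay above both SM libraries in each diet. The change was 1.42-fold in ND mice (0.50 ± 0.10, adjusted p = 0.00827), where Mki67 rose, and 1.30-fold in HFD mice (0.38 ± 0.13, adjusted p = 0.0955). The 2 HFD SM libraries were far apart, and the HFD log2 fold change was 0.16 without the first of them and 0.66 without the second. Top2a, the topoisomerase that untangles sister chromatids, was at 9.81 and 11.8 FPKM against 7.48 and 9.02 FPKM in HFD mice (0.36 ± 0.10, adjusted p = 0.0587). In ND mice it was at 8.48 and 7.26 FPKM against 5.48 and 7.09 FPKM (0.33 ± 0.13, adjusted p = 0.242). Hmgb2, an abundant chromatin protein, overlapped between ARMs and SMs in both diets, at 60.7 and 74.5 FPKM against 65.2 and 58.2 FPKM in HFD mice and 54.9 and 40.9 FPKM against 53.5 and 51.5 FPKM in ND mice. It gave 0.09 (adjusted p = 0.626) and -0.09 (adjusted p = 0.799).

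The members moved together between libraries of the same group in HFD ARMs, HFD SMs and ND ARMs, and not in ND SMs. In HFD ARMs 2 of the 40 were higher in the first library than in the second, with a median log2 difference of -0.16, and in HFD SMs 7 of the 40, with a median of -0.19. In ND ARMs 37 of the 40 were higher in the first library, with a median of 0.26, and in ND SMs 21 of the 40, with a median of 0.04. Over all genes this share was between 48.0% and 50.6% in the 4 groups. Relative to each gene's mean in its diet, the median member was at 0.06 and 0.27 log2 units in the HFD ARM libraries and at -0.28 and -0.05 in the HFD SM libraries. In ND mice it was at 0.24 and -0.06 in the ARM libraries and at -0.07 and -0.11 in the SM libraries. The 2 ND ARM libraries were farther apart than the second of them was from either ND SM library. In HFD mice the first ARM library (0.06) was closer to the second SM library (-0.05) than to the second ARM library (0.27). By role, licensing genes in the second ND ARM library (-0.15) were below those in the first ND SM library (0.08), while the spindle genes kept ARMs (0.24 and 0.06) above SMs (-0.18 and -0.10).

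**Figure D3:**
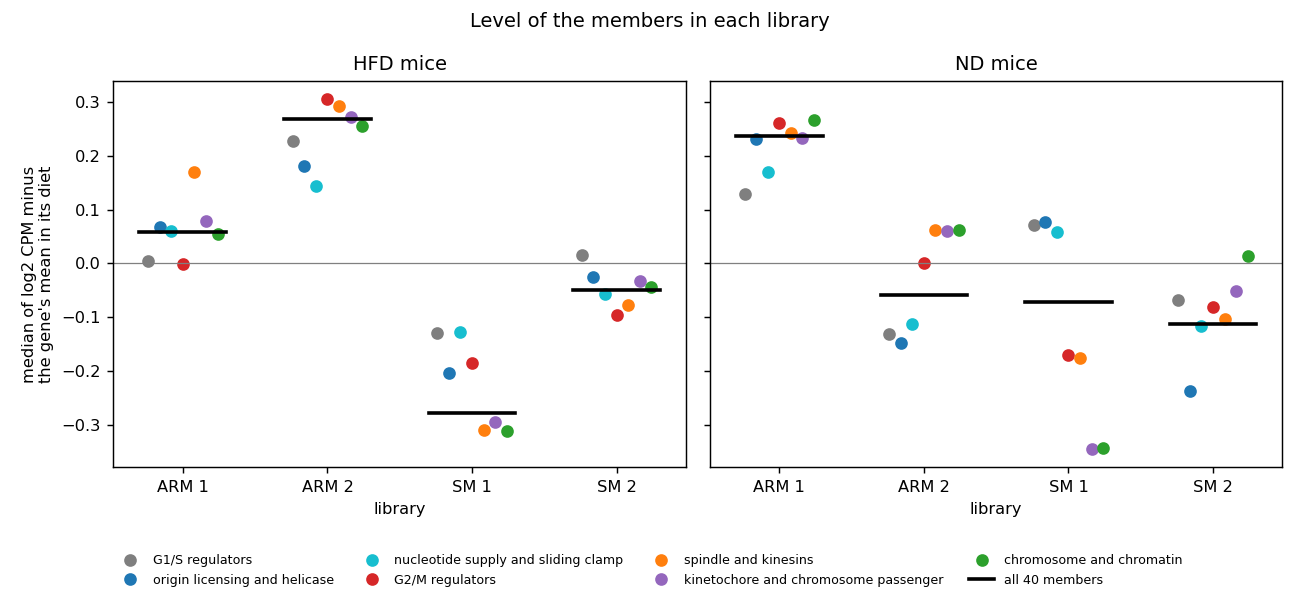
Median over the members of log2 CPM (counts scaled to the library total with the TMM factors) minus each gene's mean in its diet, for each library (black bars, all 40 members; points, each role). The HFD ARM libraries lie at 0.06 and 0.27 and the HFD SM libraries at -0.28 and -0.05, and the first ND ARM library, at 0.24, is above the other 3 ND libraries.

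Whether the ARM against SM change differed between diets was tested by edgeR's interaction term in a fit of all 8 libraries. Of the 40 members, 0 passed at an adjusted p under 0.05, where 0.165% of 13358 genes did, and 0 at an unadjusted p under 0.05, where 7.61% did. DESeq2 also gave 0. The smallest adjusted p was 0.732 (Cdt1, a difference of -0.30 ± 0.16). The differences, HFD minus ND, ranged from -0.45 (Ccne2) to 0.42 (Ccne1), with a median of 0.05 against -0.025 over all genes. Mki67, which rose in ND mice and did not pass in HFD mice, differed by -0.14 ± 0.18 (adjusted p = 0.946). Kif11, Tpx2 and Ube2c, which rose in HFD mice, differed by 0.12 ± 0.23, 0.0071 ± 0.19 and -0.04 ± 0.23. The median was negative without the second HFD ARM library (-0.04), the first HFD SM library (-0.02) or the second ND ARM library (-0.07).

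Levels in HFD and ND mice are given as values without a test, since the 2 tables differed in how their counts were estimated (with decimals in 32.3% to 32.9% of genes in HFD libraries and 8.55% to 9.36% in ND libraries), so that diet and table cannot be told apart. The median log2 ratio of the group means, HFD over ND, was 0.46 in ARMs and 0.35 in SMs in FPKM, and 0.47 in both in CPM. All genes had medians of -0.10 and -0.12 in FPKM and of 0.0010 and 0.018 in CPM. Relative to those medians the members were higher in HFD mice in both cell types. Both HFD libraries lay above both ND libraries in FPKM for 30 members in ARMs and 26 in SMs, where 28.5% and 27.4% of all genes did, and below them for 1 and 4, where 43.2% and 46.4% did. In CPM the counts were 30 above and 1 below in ARMs (36.5% and 35.5% of all genes) and 30 above and 3 below in SMs (37.5% and 33.7%). All 8 of the G2/M genes were higher in HFD mice without overlap in both cell types, with medians of 0.61 and 0.51, and so were all 7 spindle genes in ARMs (median 0.66) and 6 of the 7 in SMs (0.47). Origin licensing genes had medians of 0.15 and -0.05 in FPKM and of 0.21 and 0.10 in CPM.

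Among the mitotic members, Ube2c had a log2 ratio of 1.10 in both ARMs and SMs, Cenpf of 1.02 and 1.17 and Birc5 of 0.95 and 0.88. The transcript length implied by counts over FPKM was 1.34 times as long in the HFD table as in the ND table for Birc5 and 1.17 times for Ube2c, against 1.06 for the median gene, and their CPM ratios were accordingly larger (1.39 and 1.32 in ARMs). Mki67 had ratios of 0.27 and 0.36 and Top2a of 0.46 and 0.39. Of the replication members, Cdt1 had 0.74 and 0.99 and Tk1 0.66 and 0.57. Mcm2, Mcm3, Mcm4 and Mcm6 lay between -0.35 and -0.03 in FPKM and between -0.22 and 0.07 in CPM. Pcna was lower in HFD mice without overlap in both cell types, at -0.41 and -0.45 in FPKM and -0.24 in both in CPM.

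**Figure D4:**
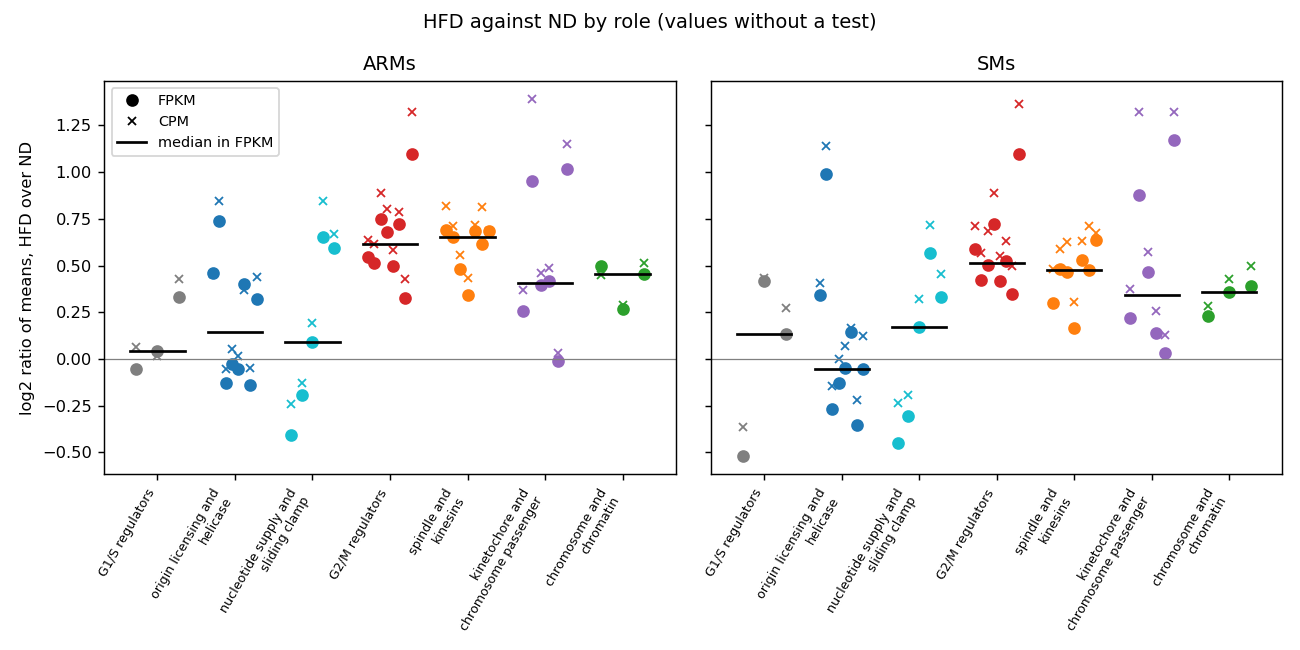
Log2 ratio of group means, HFD over ND, of the 40 members by role, in ARMs (left) and SMs (right), in FPKM (points) and CPM (crosses), with medians in FPKM (bars). The 8 G2/M genes lie above 0 in both panels, and the licensing genes lie on both sides of 0, with medians of 0.15 and -0.05.

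Genes outside the 40 were examined in 5 lists, 4 of the cell cycle and 1 of macrophage growth signals. In the 5 lists, 7 of 168 genes tested were called on HFD and 3 of 165 on ND, all higher in ARMs. Of the 7 and the 3, 3 and 2 were macrophage growth signals. The called shares of the 5 lists together, 4.17% and 1.82%, were below those of all genes called higher, 4.46% and 3.55%. The HFD count was 3 without the first ARM library, 0 without the second and 12 without the second SM library, and the ND count was 1 without the second ARM library. The 59 other mitosis genes listed had medians of 0.29 (HFD) and 0.22 (ND), close to those of the members. Of those tested, 51 of 59 and 45 of 58 were above 0. At edgeR's unadjusted p under 0.05, 21 of them were higher and 1 lower on HFD (35.6% and 1.69%, against 13.4% and 9.75% of all genes). On ND 7 of them were higher and 1 lower (12.1% and 1.72%, against 10.2% and 4.75%). In HFD mice 6 of them passed the test and all rose (10.2%, against 6.53% of all genes), and 3 of them were called (5.08%, against 4.46%). Spc24, a kinetochore subunit, was at 5.4 and 6.02 FPKM against 3.84 and 2.9 FPKM, a rise of 1.67-fold (adjusted p = 0.0302). Iqgap3, a scaffold linked to cell division, was at 4.0 and 4.27 FPKM against 2.23 and 2.78 FPKM, a rise of 1.60-fold (adjusted p = 0.00837), and Troap, a spindle protein, rose 1.54-fold (adjusted p = 0.0343). Ckap2l, Prc1 and Spag5, all of the spindle, passed below the fold limit. In ND mice 1 passed, Ncapg2 of the condensin complex, which was 1.46-fold higher (adjusted p = 0.024). By edgeR's interaction term none of these mitosis genes passed, so a difference between diets was not shown. The differences, HFD minus ND, were 0.48 (Spc24), 0.35 (Iqgap3), 0.28 (Troap) and -0.40 (Ncapg2). They were -0.05 (Ckap2l), 0.25 (Prc1) and 0.29 (Spag5), and adjusted p ranged from 0.453 to 0.989. The 50 other replication genes had medians of 0.10 and 0.05, and 0 passed in either diet by edgeR, with 7 higher and 2 lower at an unadjusted p under 0.05 in HFD mice and 4 and 1 in ND mice. The shares higher, 14% and 8%, were near the 13.4% and 10.2% of all genes.

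**Figure D5:**
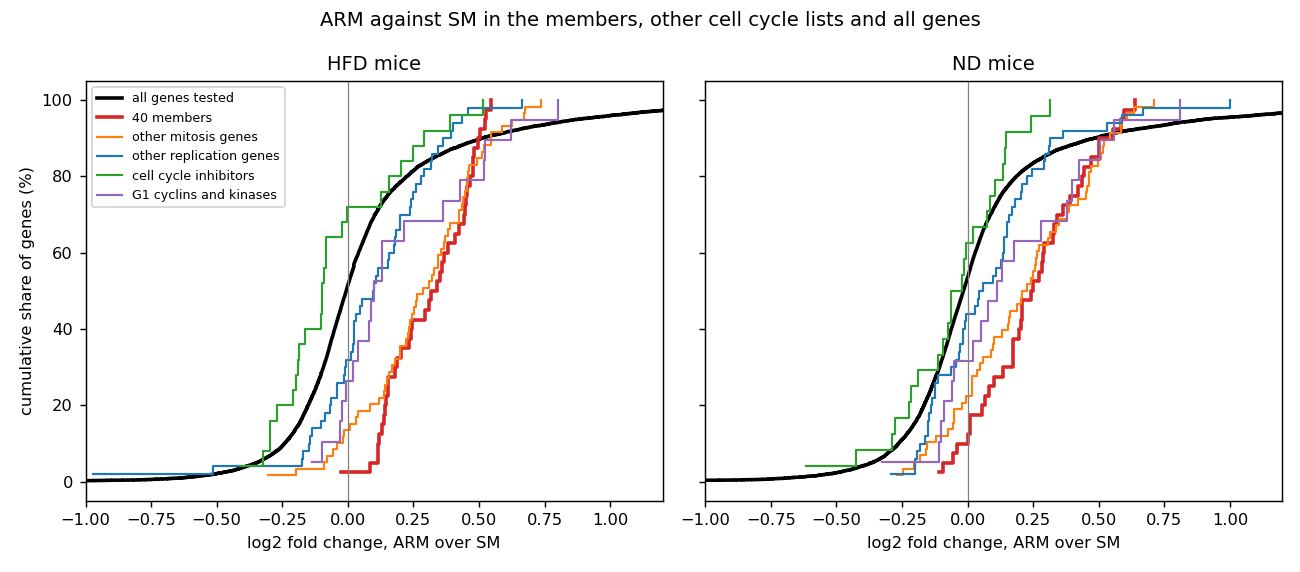
Cumulative share of genes by log2 fold change of ARMs over SMs for all genes tested, the 40 members and 4 other lists, in HFD mice (left) and ND mice (right). The members and the other mitosis genes run to the right of all genes, with medians of 0.33 and 0.29 in HFD mice and 0.24 and 0.22 in ND mice, and the inhibitors have medians of -0.10 and -0.04.

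The 25 cell cycle inhibitors had medians of -0.10 (HFD) and -0.04 (ND). At edgeR's unadjusted p under 0.05, 3 were higher and 8 lower in HFD mice (12% and 32%, against 13.4% and 9.75% of all genes). In ND mice 1 was higher and 3 were lower (4.17% and 12.5%, against 10.2% and 4.75%). In HFD mice Gadd45b, a stress sensor that restrains growth, fell to 0.80-fold (290 and 316 FPKM in ARMs against 384 and 360 FPKM in SMs, adjusted p = 0.0126), and Tob1, an antiproliferative factor, fell to 0.81-fold (adjusted p = 0.0212). In the same mice Btg1, of the family of Tob1, rose 1.19-fold (adjusted p = 0.0489), and Pkmyt1, the kinase that holds Cdk1 inactive, rose 1.43-fold (adjusted p = 0.0158). In ND mice Cdkn1b, the inhibitor p27 of Cdk2 complexes, fell to 0.74-fold, from 25.7 and 26.1 FPKM in SMs to 19.97 and 18.6 FPKM in ARMs (adjusted p = 0.0266). None of these reached the fold limit. By edgeR's interaction term none of them passed, so a difference between diets was not shown. The differences, HFD minus ND, were -0.36 (Gadd45b), -0.09 (Tob1), -0.08 (Btg1), 0.26 (Pkmyt1) and 0.31 (Cdkn1b). Their adjusted p ranged from 0.343 to 0.957. In HFD mice 4 of 25 inhibitors passed (16%), 2 higher and 2 lower, where 6.53% of all genes rose and 3.02% fell. In ND mice 1 of 24 tested passed (4.17%), where 4.28% of all genes rose and 0.458% fell.

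The G1 cyclins and kinases had medians of 0.10 and 0.11, with 19 of 20 tested in each diet. In each diet 1 was called (5.26%), where 4.46% (HFD) and 3.55% (ND) of all genes were called higher. In HFD mice 3 passed the test (15.8%), where 6.53% of all genes rose. In HFD mice Ccnd2, a D cyclin that links growth signals to G1 kinases, was called at 1.74-fold (3.23 and 3.93 FPKM against 1.87 and 2.17 FPKM, adjusted p = 0.00207), and Ccnd1 rose 1.43-fold below the fold limit (24.9 and 25.7 FPKM against 16.8 and 17.8 FPKM, adjusted p = 0.000923). Cdk6, a partner of the D cyclins, rose 1.34-fold (adjusted p = 0.0138). In ND mice Myc, a transcription factor of growth, was called at 1.75-fold (13.5 and 20.7 FPKM against 9.0 and 10.5 FPKM, adjusted p = 0.011). Of the macrophage growth signals, 3 of 15 tested were called in HFD mice (20%) and 2 of 14 in ND mice (14.3%), against the same shares. Csf1, the ligand of the receptor that sustains macrophages, was called in ND mice at 1.93-fold (2.87 and 4.02 FPKM against 1.81 and 1.85 FPKM, adjusted p = 0.00903). It rose 1.34-fold in HFD mice (adjusted p = 0.0401). Il34, the other ligand of that receptor, was called in HFD mice at 2.49-fold (1.0 and 1.17 FPKM against 0.37 and 0.49 FPKM, adjusted p = 0.0361). Spp1, osteopontin, was called in both diets, at 2.23-fold in HFD mice (adjusted p = 0.0191) and 2.05-fold in ND mice (adjusted p = 0.00026). Kit, a receptor also found on mast cells and progenitors, was called in HFD mice at 2.61-fold (adjusted p = 0.0132). Il4ra, a receptor chain for interleukin-4, fell to 0.84-fold in HFD mice (adjusted p = 0.0355). Genes given here for a single diet did not pass edgeR's interaction term, so a difference between diets was not shown. The differences, HFD minus ND, were -0.61 (Myc), 0.28 (Ccnd2), 0.22 (Ccnd1) and 0.03 (Cdk6), with adjusted p from 0.423 to 0.99. They were 0.95 (Il34), 1.08 (Kit) and -0.39 (Il4ra), with adjusted p from 0.268 to 0.848.

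Transcripts of other cell types moved with the ARM against SM comparison. The 8 adipocyte markers, all listed, summed to 923 and 1049 TPM in HFD ARMs against 321 and 240 TPM in HFD SMs, and to 439 and 684 TPM in ND ARMs against 223 and 326 TPM in ND SMs. The 8 endothelial markers summed to 86.5 and 81.6 TPM against 37.5 and 27.2 TPM in HFD mice and to 22.6 and 43.9 TPM against 17.9 and 22.4 TPM in ND mice. The 8 fibroblast and progenitor markers summed to 363 and 444 TPM against 267 and 244 TPM in HFD mice and to 467 and 683 TPM against 161 and 224 TPM in ND mice. In ND ARMs these 3 lists were higher in the second library, where 3 of the 40 members were higher. In HFD ARMs the adipocyte and fibroblast markers, the erythroid markers (212 and 268 TPM) and the monocyte markers (74.7 and 91.0 TPM) were higher in the second library, where 38 of the 40 members were higher too, and the endothelial markers were not. In HFD SMs the adipocyte, endothelial, fibroblast and erythroid markers were lower in the second library and the monocyte markers higher. Of the 40 members, 7 were lower there. In ND SMs the first 3 lists were higher in the second library, where 21 of the 40 members were lower. Mesothelial, pericyte and, in HFD mice, erythroid markers were also higher on average in ARMs, at 1.31, 1.73 and 2.53 times the SM level in HFD mice, and mesothelial and pericyte markers at 3.38 and 1.45 times in ND mice. The 6 monocyte markers were at 1.17 times the SM level in HFD mice and 0.90 times in ND mice, and the 7 neutrophil markers at 1.18 and 0.68 times. The 9 T and NK cell markers listed summed to 11.9 and 12.6 TPM in HFD ARMs against 9.83 and 8.83 TPM in HFD SMs, without overlap, and to between 8.71 and 10.95 TPM in the ND libraries. No listed marker of these lists was at 0 in all libraries of a diet. Their part in the members' change was not tested.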

How the data were processed

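RNA-seq of sorted eWAT macrophages was analysed from a table for each diet, in which the authors deposited an estimated count, an FPKM and a TPM for each gene and library, on mouse build mm10 per the submitters' processing notes. The aligner and counter are not given in the sources used here. RNA was extracted with Trizol and sequenced on an Illumina platform. Counts of near-identical genes can be shared between them, and the estimated counts of 16 members in the HFD table and 5 in the ND table were not whole numbers. No columns of other samples were present.

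Estimated counts were rounded and fitted for each diet alone with edgeR 4.0.16 in R 4.3.3 (TMM normalization, filterByExpr, quasi-likelihood test, Benjamini-Hochberg adjustment). DESeq2 1.42.0 and limma 3.58.1 on log2(FPKM + 1) and log2(FPKM + 0.1) were alternatives, besides other normalizations, filters and left-out libraries. The limma fold changes are on the log2(FPKM + pseudocount) scale, which understates changes of low genes. The threshold without a fold limit was added after no member passed the fold limit. With 2 libraries against 2, the smallest two-sided p of an exact permutation test is 0.333, and the p-values given borrow their spread from all genes. Replicate libraries differed by more than sampling noise (mean chi-square per gene 4.21 to 10.1) and were counted separately.

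The members, the lists of other genes and the marker lists were chosen with earlier results of these data known. Values in every library are given for Mki67, Top2a, Cdk1, Ccnb1, Pcna, Mcm5 and E2f1, for members called, for up to 8 members per diet by ascending unadjusted p under 0.05, and for the 2 highest and 2 lowest members by FPKM, and the values of other members and of list genes that passed below the fold limit were chosen after they were seen. From each list the called genes were named, at most 4 per diet. Motifs were searched as exact letters. The fits were tested on counts simulated independently for each gene, with a common spread per diet. The members moved together between libraries in most groups, so that test does not bear on how many of them passed. Python 3.11.15 with matplotlib 3.10.9 drew the figures.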

Additional observations from a re-analysis of the deposited data

Results flagged for a closer look

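Tyms was on opposite sides in the diets. In HFD mice its ARM libraries lay above its SM libraries (11.2 and 11.3 FPKM against 9.64 and 10.6 FPKM, log2 fold change 0.12) and in ND mice below them (7.79 and 7.06 FPKM against 8.01 and 8.05 FPKM, log2 fold change -0.11). The interaction did not pass edgeR's test across all genes (difference 0.21 ± 0.13, adjusted p = 0.808). Neither change passed edgeR's test within its diet (adjusted p = 0.381 in HFD mice and 0.769 in ND mice). Such separation was common: in CPM, 26.2% of all genes had both ARM libraries on top in HFD mice. In ND mice 22.8% had them below both SM libraries. The share of all genes on opposite sides in the diets was not counted.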

How the results depend on the processing

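The median log2 fold change of the members stayed above 0 under every alternative run in both diets, from 0.21 to 0.45 (HFD) and from 0.051 to 0.35 (ND) over left-out libraries. The ND value without the first ARM library was 0.051. The count of members that passed the test in HFD mice, 8, was 12 with library totals or upper-quartile normalization, 1 with DESeq2, 0 with no filter on low counts, 15 with at least 10 counts in every library, 4 and 3 with limma at a pseudocount of 1 and 0.1, 0 with limma and no filter, 1 in the fit of all 8 libraries, and 0 to 19 with 1 library left out. Members called were 0 to 9 with 1 library left out, and 0 under each other alternative run. In ND mice the count that passed, 1, was 2 with no filter, 0 with limma at either pseudocount and with no filter, 2 in the fit of all 8 libraries and 0 to 1 over left-out libraries. Members called in ND mice were 1 with no filter (Rrm2), 1 with the threshold of the study's methods section (log2 fold change over 0.6 and p under 0.05) and 0 to 1 over left-out libraries. The 7 genes of the 5 other lists called in HFD mice were 3 with DESeq2, 0 with no filter, 2 with limma at a pseudocount of 1 and 0 without its filter, 4 in the fit of all 8 libraries, 11 with the methods threshold and 0 to 12 over left-out libraries. The 3 in ND mice were 1 with limma at either pseudocount and 0 without its filter, 5 in the fit of all 8 libraries, 6 with the methods threshold and 1 to 4 over left-out libraries. The cause of these changes was not tested.

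With the replicate block, 16 members passed in HFD mice, the 8 among them, and 7 in ND mice, with Mki67 among them. In ND mice 1 was called (Kif20a), as were 6 list genes. Same-numbered libraries deviated together in ND mice (Pearson's r across 12441 genes 0.256) and not in HFD mice (-0.0014 across 13337 genes), and nothing in the labels ties the numbers to a shared day or animal, so the numbers were not taken to pair the libraries.

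Single genes changed sign near 0. Pcna in HFD mice was 0.0024 with library totals and 0.0014 with limma under either pseudocount or no filter. Over left-out libraries Pcna ranged from -0.065 to 0.015, Ccne2 from -0.41 to 0.52, Cdk1 from -0.049 to 0.49 and Hmgb2 from -0.025 to 0.19 in HFD mice, and Mcm5 from -0.12 to 0.47, E2f1 from -0.15 to 0.029, Pcna from -0.16 to 0.068 and Hmgb2 from -0.26 to 0.048 in ND mice. The median difference between diets ranged from -0.066 to 0.24 over left-out libraries. Where an arm was left with 1 library, it was assumed to vary like the other group. Depth limits most the members with the fewest counts, such as Ccne2 and Ccne1, and with pools as replicates the spread between single mice cannot be measured.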
